A study of Drosophila melanogaster with 2 samples.

Results

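The Enhancer of split complex, abbreviated E(spl), is a cluster of small genes on arm 3R of Drosophila melanogaster. Its 10 genes described here were chosen by name, with earlier results of these data known. The 10 are among 13945 protein-coding genes on the 6 chromosome arms. They are 7 genes for basic helix-loop-helix (bHLH) repressors, with names that end in HLH, and 3 genes for Bearded family proteins, with names that end in BFM. Together they spanned 43388 bp of the dm6 genome, chr3R:25997621-26041008. The region examined reached 20 kb further on each side, to chr3R:25977621-26061008, and held 7 of the 3203 summits in the authors' reproducible peak list. Peaks came from chromatin immunoprecipitation and sequencing of whole embryos aged 0 to 24 hours, with males and females pooled. The embryos were of strain 9T-GFP, a transgenic line in which Sloppy paired 2 (Slp2) carries green fluorescent protein (GFP) at its C terminus. Chromatin was precipitated with an antibody against GFP, per the sample descriptions, although the antibody label reads slp2. There was 1 group of 2 samples, labelled biological replicates 2 and 3 and drawn from the same line, with no second condition and no control analysed here. The labels used here do not give the promoter that drives the fusion. A whole embryo mixes many cell types and stages, so strong binding in few cells and weak binding in many cannot be told apart.

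The bHLH proteins of the complex are transcriptional repressors that end in a short peptide bound by the corepressor Groucho. Signalling through the receptor Notch activates these genes by way of the DNA-binding protein Su(H), and the repressors then hold back neural fate in the receiving cells. Bearded family proteins such as E(spl)malpha-BFM and E(spl)m4-BFM inhibit the ubiquitin ligase Neuralized, which Delta needs in the signalling cell. Slp2 is a forkhead transcription factor known from segmentation of the embryo and from neuroblasts. The gene for Groucho, gro, lies directly beside the complex.

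4 lists on dm6 were used. Each replicate had a relaxed list of 30000 entries, both replicates together had a pooled list of 28637, and the list filtered on the irreproducible discovery rate (IDR), a measure of how well replicates rank alike, had 3203. All 3203 IDR rows were the strongest pooled rows by signal value, so an IDR signal is a pooled value without an error of its own. The signal value is a score of the authors' peak caller with no stated scale, so ranks within a list are given beside it. The number of reads is not recorded in the lists, so depth is unknown. A summit is the position of highest signal in a peak, and each summit was given once, to the protein-coding gene with the nearest transcription start site (TSS). No test between groups was possible in a series with 1 group.

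Sequences are shown for 5 of the 7 IDR summits in the region, because the description turns on these peaks. The first 3 lines are those nearest to a gene of the complex and the last 2 are those nearest to gro. Each line gives 100 bp on each side of the summit, 201 bases from the Release 6 assembly, with the letters TAAACA of the forkhead core or its reverse complement TGTTTA in capitals.
E(spl)malpha-BFM, chr3R:26009014-26009214, plus strand: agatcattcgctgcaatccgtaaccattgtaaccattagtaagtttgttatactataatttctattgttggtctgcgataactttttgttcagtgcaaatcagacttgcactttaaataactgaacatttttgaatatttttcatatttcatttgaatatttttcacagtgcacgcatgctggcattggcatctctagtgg
E(spl)m3-HLH, chr3R:26021324-26021524, plus strand: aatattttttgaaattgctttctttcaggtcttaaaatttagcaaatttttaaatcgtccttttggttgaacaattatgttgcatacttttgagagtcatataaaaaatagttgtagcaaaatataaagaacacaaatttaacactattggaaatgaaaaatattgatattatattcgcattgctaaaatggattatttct
E(spl)m7-HLH, chr3R:26036632-26036832, plus strand: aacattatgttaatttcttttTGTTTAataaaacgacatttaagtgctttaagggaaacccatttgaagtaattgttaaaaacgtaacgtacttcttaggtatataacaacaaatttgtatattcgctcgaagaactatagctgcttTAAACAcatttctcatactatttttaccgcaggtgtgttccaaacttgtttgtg
gro, summit upstream of the gene, chr3R:26041534-26041734, plus strand: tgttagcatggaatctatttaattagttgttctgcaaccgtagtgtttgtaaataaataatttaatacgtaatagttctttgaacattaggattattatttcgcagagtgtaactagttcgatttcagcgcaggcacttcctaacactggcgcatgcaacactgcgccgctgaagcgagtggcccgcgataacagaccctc
gro, summit within the gene, chr3R:26042419-26042619, plus strand: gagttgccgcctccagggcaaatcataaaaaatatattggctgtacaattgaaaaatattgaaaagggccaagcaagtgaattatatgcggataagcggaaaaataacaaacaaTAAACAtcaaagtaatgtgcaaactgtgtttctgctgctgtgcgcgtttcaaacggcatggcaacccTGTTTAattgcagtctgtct

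IDR summits were nearest to 3 of the 10 genes of the complex, against 16.8% of all protein-coding genes. The genes with one were E(spl)m3-HLH and E(spl)m7-HLH among the 7 bHLH genes and E(spl)malpha-BFM among the 3 Bearded family genes. Requiring a summit within 500 bp of a gene's own TSS left E(spl)m3-HLH and E(spl)m7-HLH, 2 of 10, against 15.2% of all genes. With as many of the strongest peaks of a single replicate as the IDR list holds, the same 3 genes had a summit in replicate 2 (all genes 16.3%) and in replicate 3 (all genes 17.2%). The replicate lists went into the IDR list, so this agreement is no independent check. Counting every summit in a gene body or within 5 kb of it gave 9 of 10, all but E(spl)m5-HLH, against 39.4%, but there 1 summit counts for several neighbours. The length of chromosome over which a gene's TSS was the nearest had a median of 3810 bp for the 10 genes and 4321 bp for all genes.

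E(spl)m3-HLH, a bHLH repressor gene at chr3R:26021823-26023127 on the plus strand, had the strongest IDR peak of the complex. Its summit at 26021424 lay in intergenic sequence 399 bp upstream of the TSS. The signal value was 101 in replicate 2 (rank 480) and 51.1 in replicate 3 (rank 1485), and the pooled value was 148 (rank 796). Both replicates held it among their 3203 strongest peaks, replicate 2 nearer the top. The divergent noncoding gene lncRNA:CR43644 had its TSS closer still, 348 bp away, so with noncoding genes included this summit left E(spl)m3-HLH and 2 of the 10 genes kept one.

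E(spl)m7-HLH, another bHLH repressor gene, lies at chr3R:26037038-26038019 on the plus strand. Its IDR summit at 26036732 was intergenic, 306 bp upstream of the TSS, with a pooled signal value of 141 (rank 879). Replicate 2 had 1 summit here, at 103 (rank 458). Replicate 3 had a pair of summits, one 303 bp upstream at 38.1 (rank 2335) and one 512 bp upstream at 43.6 (rank 1915). The sequence just upstream of this gene was thus marked in both replicates, by a single peak in one and a divided one in the other. These summits lay further upstream than the promoter windows compared below, which began 250 bp before the TSS.

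E(spl)malpha-BFM, a Bearded family gene at chr3R:26010893-26011568 on the plus strand, differed from both in the place of its peak. The IDR summit at 26009114 lay 1779 bp upstream, between lncRNA:CR45039 and the gene, and no TSS was nearer. Its signal value was 88.1 in replicate 2 (rank 623), 41.6 in replicate 3 (rank 2033) and 131 in the pooled list (rank 1018). A weaker pooled summit stood 89 bp downstream of the TSS itself, at 47.4 (rank 5165).

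In pooled signal value these 3 peaks were above the median of IDR peaks, which was 102. A lower pooled signal was found for 75.1% of IDR peaks in the case of E(spl)m3-HLH, 72.6% for E(spl)m7-HLH and 68.2% for E(spl)malpha-BFM. In replicate 2 all 3 also ranked ahead of the median rank of IDR peaks, 1572. In replicate 3 that median was 1554, and only E(spl)m3-HLH (rank 1485) was ahead of it. There E(spl)malpha-BFM (rank 2033) and both summits of E(spl)m7-HLH (ranks 1915 and 2335) were behind it.

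**Figure D1:**
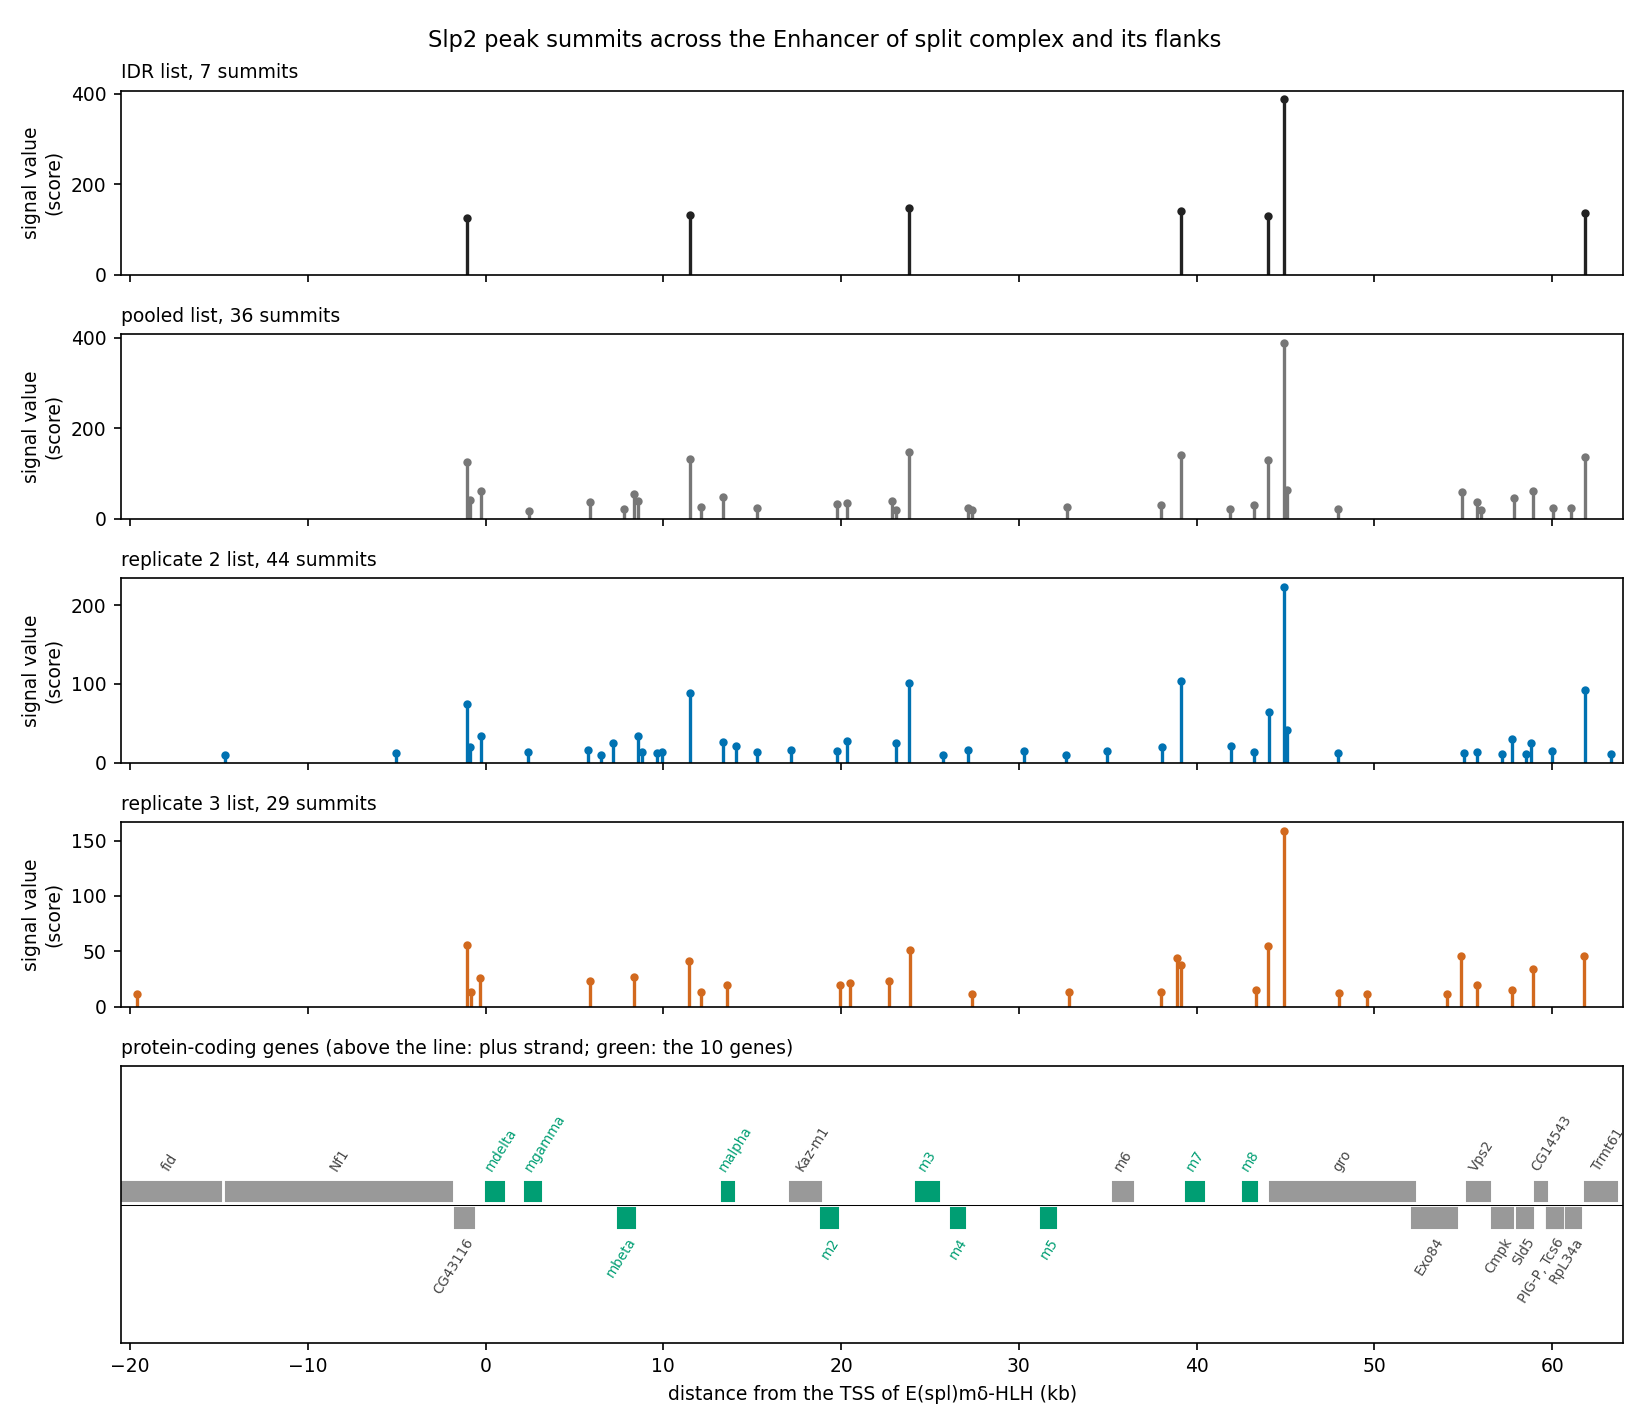
Signal values (score of the authors' caller, linear axis from 0) of all summits in the IDR, pooled and replicate lists, by distance in kb from the TSS of E(spl)mdelta-HLH, with protein-coding genes drawn to scale below. The tallest summit in every list stands at gro, at 388 in the pooled list, and the 3 IDR summits inside the complex stand between 131 and 148.

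The other 4 IDR summits of the region lay outside the complex and nearest to its neighbours. The strongest belonged to gro (chr3R:26041736-26049911), with a summit at 26042519 in an intron of the gene and 122 bp upstream of an internal TSS. It had signal values of 223 in replicate 2 (rank 73) and 158 in replicate 3 (rank 152), and its pooled value of 388 (rank 94) was 2.62 times that of the E(spl)m3-HLH peak. A further gro summit at 26041634, 102 bp upstream of the first TSS, had 64.5 in replicate 2 (rank 1219) and 55.0 in replicate 3 (rank 1311). It stood between gro and E(spl)m8-HLH, the repressor gene next to it. On the other side of the complex a summit at 25996564 in an intron of CG43116 had a pooled value of 126 (rank 1099). The last, at 26059466 and 30 bp upstream of Trmt61, which encodes a tRNA methyltransferase subunit, had 136 (rank 944).

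The remaining 7 genes had summits in the relaxed lists only. Relaxed lists hold background by design, and all 10 genes had a pooled summit where 66.6% of all genes did. All 10 also had one in replicate 2 (all genes 63.2%) and 9 had one in replicate 3 (all genes 67.6%), the exception being E(spl)mgamma-HLH.

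E(spl)mdelta-HLH and E(spl)mbeta-HLH came nearest to the IDR list. The bHLH gene E(spl)mdelta-HLH had its only pooled summit 274 bp upstream of the TSS, with a signal value of 60.3 (rank 3628), where the lowest value in the IDR list was 65.4. The same summit had 33.8 in replicate 2 (rank 3884) and 26.3 in replicate 3 (rank 4000). For E(spl)mbeta-HLH, also a bHLH gene, the strongest pooled summit lay 35 bp downstream of the TSS at 55.3 (rank 4127). The strongest given to it had 34.4 in replicate 2 (rank 3739), upstream of the TSS, and 26.6 in replicate 3 (rank 3924), downstream of it. Both genes thus ranked alike in the replicates, just below the length of the IDR list.

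The other bHLH genes were lower. E(spl)m8-HLH had its strongest pooled summit at 30.6 (rank 10473), 616 bp downstream of the TSS, where replicate 2 had 13.7 (rank 17703) and replicate 3 had 14.8 (rank 14811). Its strongest summit in replicate 2 was another one, 673 bp upstream, at 20.6 (rank 8994). E(spl)m5-HLH had a single pooled summit at 26.7 (rank 13537), 602 bp upstream, where replicate 2 had 10.4 (rank 26570) and replicate 3 had 12.9 (rank 20922). Its strongest summit in replicate 2 was another one, 1819 bp downstream, at 14.3 (rank 16517). That of E(spl)mgamma-HLH, at 18.0 (rank 28575), was close to the end of the pooled list, and replicate 2 had it at 13.9 (rank 17210).

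Of the other Bearded family genes, E(spl)m2-BFM had its strongest pooled summit 492 bp upstream at 35.4 (rank 8092), with 27.4 in replicate 2 (rank 5524) and 21.3 in replicate 3 (rank 5960). E(spl)m4-BFM reached 23.7 (rank 17008) 159 bp upstream. Replicate 2 had 16.2 (rank 13560) there, and the only summit of replicate 3 given to the gene was another one, 398 bp upstream, at 11.9 (rank 24932). A further Bearded family gene inside the cluster, E(spl)m6-BFM, is not among the 10 and had a summit in replicate 2 only, at 15.4 (rank 14719). Kaz-m1, formerly E(spl)m1, encodes a protein of the Kazal protease inhibitor type and had a pooled summit of 22.9 (rank 18223).

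Taking the strongest pooled summit of each gene, the 10 genes had a median signal value of 45.4 and a range from 18.0 to 148, against a median of 34.8 and quartiles of 24.4 and 66.0 for the 9288 genes with a pooled summit. In replicate 2 the medians were 30.6 for the 10 genes and 21.9 for 8819 genes, and in replicate 3 they were 26.3 for 9 genes and 19.0 for 9421 genes. The values within the complex thus ran from near the bottom of the list to the stronger end of the genes. The 10 genes also had more summits to take the strongest from. Their median was 2 summits in the pooled list, 2 in replicate 2 and 1.5 in replicate 3, against 1 for all genes in each list. The effect of that number on the strongest value was not tested.

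**Figure D2:**
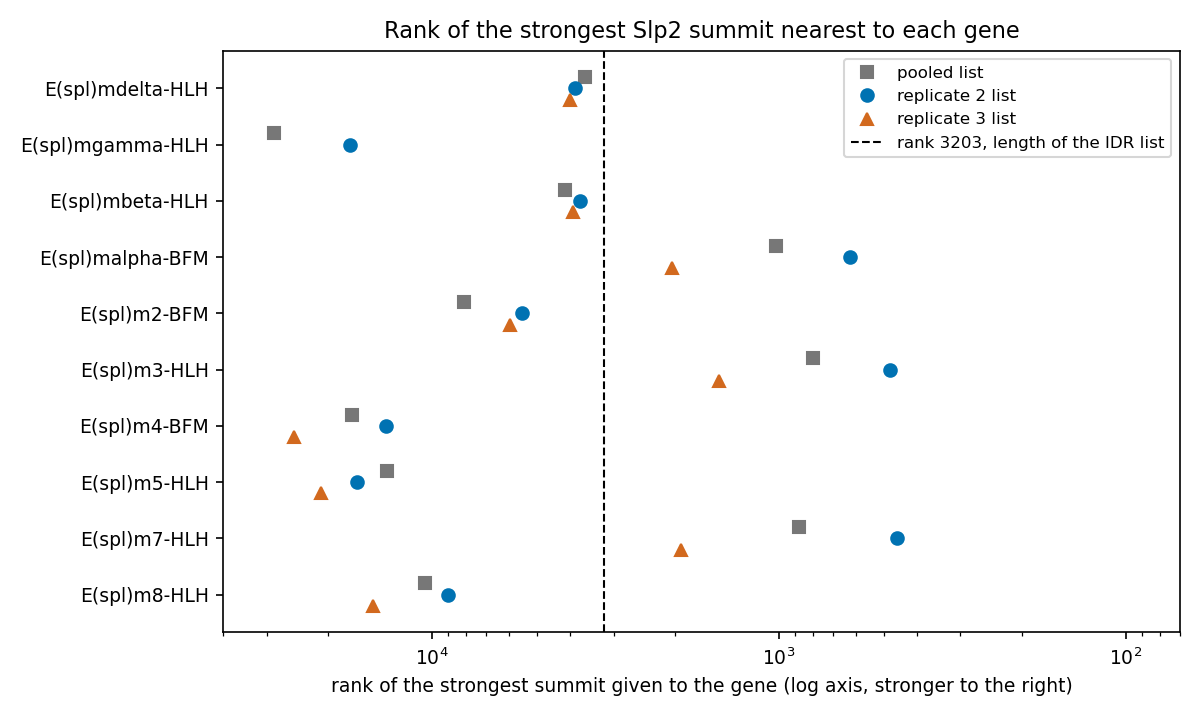
Rank (log axis, stronger to the right) of the strongest summit given to each of the 10 genes in the pooled, replicate 2 and replicate 3 lists; the dashed line marks rank 3203, the length of the IDR list. E(spl)malpha-BFM, E(spl)m3-HLH and E(spl)m7-HLH lie right of the line in every list and the other 7 genes left of it. In the pooled list this is fixed, because the IDR list is its 3203 strongest rows. The replicate lists went into the IDR list and are no independent check.

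Summits in the complex lay upstream of their gene more often than downstream. The pooled list gave 21 summits to the 10 genes, of which 14 were upstream and 7 downstream of the TSS, where 44.0% of all pooled summits were upstream. Within 500 bp of the TSS lay 11 of the 21, where 27.6% of all pooled summits did. The length of chromosome over which a gene's TSS was the nearest was at most 5521 bp for the 10 genes. How far gene spacing and gene length set these shares was not tested. A replicate summit within 200 bp was found for 17 of the 21 in replicate 2, for 14 in replicate 3 and for 11 in both.

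**Figure D3:**
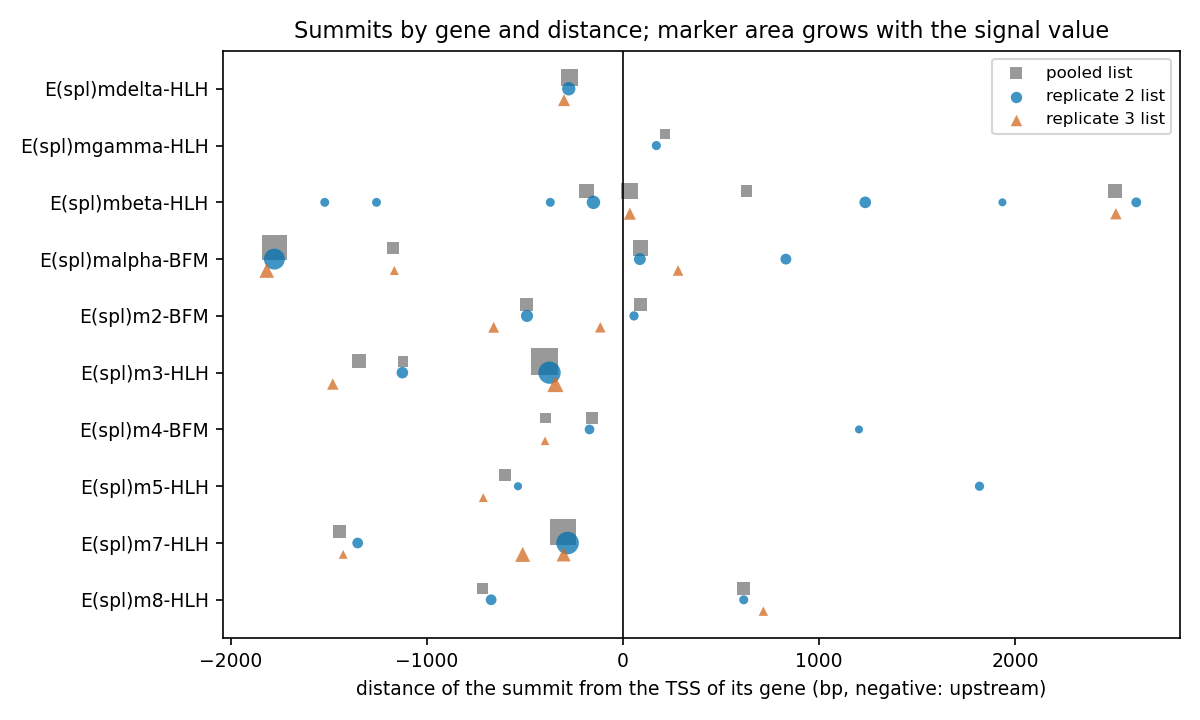
Signed distance in bp of each summit from the TSS of its gene (negative is upstream) for the pooled, replicate 2 and replicate 3 lists, 1 row per gene, with marker area growing with the signal value. The largest markers stand 399, 306 and 1779 bp upstream of E(spl)m3-HLH, E(spl)m7-HLH and E(spl)malpha-BFM, and E(spl)mgamma-HLH has no summit of replicate 3.

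At the 3 IDR peaks of the complex the signal was higher in replicate 2 than in replicate 3. The log2 ratio of the replicate 2 to the replicate 3 signal was 1.44 at E(spl)m7-HLH, 1.08 at E(spl)malpha-BFM and 0.98 at E(spl)m3-HLH. For 3148 IDR peaks both replicates had a summit no more than 200 bp away, and there the ratio had a median of 0.15 and a standard deviation of 0.65. Ratios below theirs were found for 96.3%, 92.6% and 90.5% of those peaks. The other IDR peaks of the region were also higher in replicate 2, as were 61.8% of all IDR peaks so matched. The Trmt61 peak, outside the complex, had a ratio of 0.99, like that of E(spl)m3-HLH, while the gro summits had 0.49 and 0.23 and the CG43116 summit 0.43. At E(spl)m7-HLH the ratio was 1.24 when the summit of replicate 3 was sought within 500 bp, which takes in the stronger of its pair. At weaker summits the direction was mixed. Of the 11 pooled summits given to the 10 genes and matched in both replicates, 8 were higher in replicate 2 and 3 in replicate 3. The 8 include the strong IDR peaks of the complex described above. Of all 11292 pooled summits matched in both, 54.4% were higher in replicate 2. The 3 higher in replicate 3 were weaker summits. They were those of E(spl)m5-HLH at a log2 ratio of -0.31, of E(spl)m8-HLH at -0.12 and of E(spl)mbeta-HLH 2510 bp downstream of the TSS at -0.49. Each value comes from a single sample, so no test was made and any difference in depth between the replicates was not tested.

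**Figure D4:**
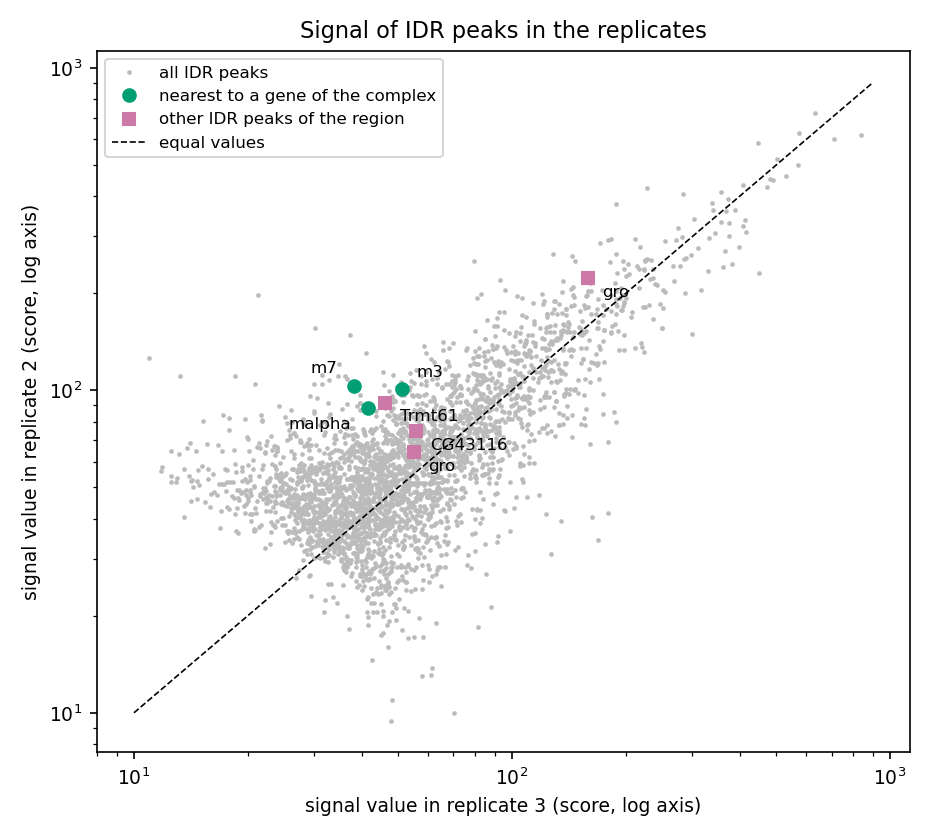
Signal values (score, log axes) in replicate 2 against replicate 3 for IDR peaks matched in both (grey), with the 3 peaks nearest to a gene of the complex (green circles) and the 4 others of the region (squares); the dashed line marks equal values. All 7 lie above the line, the green points with replicate 2 values of 88.1 to 103 and replicate 3 values of 38.1 to 51.1.

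IDR summits stood closer together here than along the arm. The region of 83.4 kb held 7, or 0.0839 per kb, against 0.0235 per kb on arm 3R, a ratio of 3.57. Cutting the 6 arms into 1603 consecutive windows of that length gave a median of 1 IDR summit, with 5 at the 90th percentile and 16 at most, and 67 windows (4.18%) held 7 or more. Beyond the region the next IDR summits were far away, 116885 bp before the CG43116 summit and 129494 bp after the Trmt61 summit. Relaxed summits were also denser, at 36 pooled summits against a median of 18 per window, 44 against 18 in replicate 2 and 29 against 20 in replicate 3. As many or more were held by 5.36% of windows in the pooled list, 5.3% in replicate 2 and 10.9% in replicate 3. The region was overlapped by 25 protein-coding genes, and the density of genes was not compared between windows.

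Letters of the forkhead core were present at some summits of the region and not at others. TAAACA, read on both strands, stood within 100 bp of 3 of the 7 IDR summits, against 26.6% of all 3203, and within 50 bp of 1. Among the 3 peaks nearest to a gene of the complex only the one of E(spl)m7-HLH had it, at positions -79 to -74 and 47 to 52 from the summit. The gro summit within the gene had it at 14 to 19 and 81 to 86. The third was the Trmt61 summit. The longer GTAAACA, which contains TAAACA, was at none of the 7 and at 7.24% of all IDR summits. In the 3 windows nearest to genes of the complex, A and T made up 66.7% at E(spl)malpha-BFM, 76.6% at E(spl)m3-HLH and 70.1% at E(spl)m7-HLH. The median over all IDR summits was 63.7%, and the spread around it was not computed. The other windows of the region had 66.2% at Trmt61, 63.2% at CG43116, and 58.7% and 60.7% at gro. A match of letters is no evidence of a bound site.

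Letters of Su(H) sites were searched for in the same way. GTGGGAA occurred 28 times in the 43388 bp of the complex, or 0.645 per kb, against 0.126 per kb on arm 3R, and GTGAGAA 13 times, or 0.300 per kb, against 0.0949. None of the 7 IDR summits had either sequence within 100 bp, and with 2.40% and 2.84% of all IDR summits having one, a count of 0 is near that background. Of the 21 pooled summits given to the 10 genes, 5 had GTGGGAA within 100 bp, against 2.56% of all 28637 pooled summits, and none had GTGAGAA, against 2.19%. Within 50 bp GTGGGAA was at 0 of the 21, against 1.12%. The 5 summits lay at E(spl)m3-HLH, 1124 bp upstream with 2 matches, at E(spl)m7-HLH, 1448 bp upstream, at E(spl)m8-HLH, 719 bp upstream, and at E(spl)m4-BFM, 159 and 396 bp upstream. Their signal values ranged from 19.0 to 30.7, all below the IDR list. The letters CACGTG, bound by bHLH repressors, stood within 100 bp of 4 of the 21, against 2.78% of all pooled summits, and within 50 bp of 0, against 1.42%. They were also denser in the whole complex, at 0.392 per kb against 0.130 per kb on arm 3R. CACGCG, the other letters searched for such repressors, stood within 100 bp of 1 of the 21, against 5.04%. The N-box CACNAG stood within 100 bp of 7, against 23.9%, and within 50 bp of 2, against 12.9%. In all, 12 motifs were searched. Of those not yet named, CAGCTG stood within 100 bp of 0 of the 21, against 11% of all pooled summits, and CAGGTG of 2, against 8.5%. GAGAGAG stood there at 1, against 3.64%, TATCGATA at 0, against 1.81%, and CAGGTAG at 1, against 1.16%.

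Promoters were also compared as windows from 250 bp before to 50 bp after the TSS of each gene. GTGGGAA was in 3 of the 10 promoters of the complex, those of E(spl)m8-HLH, E(spl)m5-HLH and E(spl)m4-BFM, against 3.59% of all protein-coding promoters. These 3 genes had no IDR summit by the nearest-TSS rule, by which only 3 of the 10 genes and 16.8% of all genes had one. With an own TSS within 2 kb E(spl)m8-HLH had one, and with gene bodies and 5 kb E(spl)m4-BFM did too. The lack of overlap was not tested. GTGAGAA was in 1 of the 10 promoters, that of E(spl)m8-HLH, against 2.95%. TAAACA was in 1, that of E(spl)malpha-BFM, against 32.5%, and GTAAACA in none, against 9.19%. The promoters of the 3 genes with GTGGGAA are shown along the direction of transcription, because they carry the Su(H) letters. GTGGGAA or GTGAGAA or their reverse complements are in capitals.
E(spl)m8-HLH, chr3R:26039990-26040289, plus strand: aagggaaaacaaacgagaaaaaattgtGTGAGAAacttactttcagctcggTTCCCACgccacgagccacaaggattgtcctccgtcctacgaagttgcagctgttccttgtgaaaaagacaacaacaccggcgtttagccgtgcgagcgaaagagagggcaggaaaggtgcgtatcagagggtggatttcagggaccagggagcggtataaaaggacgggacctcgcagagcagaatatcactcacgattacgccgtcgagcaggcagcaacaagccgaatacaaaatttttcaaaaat
E(spl)m5-HLH, chr3R:26029686-26029985, minus strand: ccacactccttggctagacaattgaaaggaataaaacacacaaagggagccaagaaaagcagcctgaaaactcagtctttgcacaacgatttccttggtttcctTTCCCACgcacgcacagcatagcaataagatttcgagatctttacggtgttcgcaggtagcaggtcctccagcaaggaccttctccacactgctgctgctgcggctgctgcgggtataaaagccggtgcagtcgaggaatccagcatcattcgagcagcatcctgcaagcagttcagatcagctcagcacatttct
E(spl)m4-BFM, chr3R:26024530-26024829, minus strand: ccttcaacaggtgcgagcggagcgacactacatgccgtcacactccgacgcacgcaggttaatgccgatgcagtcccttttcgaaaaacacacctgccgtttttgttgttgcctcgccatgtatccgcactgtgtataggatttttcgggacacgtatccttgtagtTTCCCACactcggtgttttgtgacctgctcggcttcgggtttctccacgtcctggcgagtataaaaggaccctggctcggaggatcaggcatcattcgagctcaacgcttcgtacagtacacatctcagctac

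In the promoter of E(spl)m8-HLH the 2 matches lay at -223 to -217 and -199 to -193 from the TSS. The match of E(spl)m5-HLH lay at -146 to -140, and that of E(spl)m4-BFM at -83 to -77.

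Related genes elsewhere in the genome were counted by the same nearest-TSS rule, against 16.8% of all genes. Of 5 further bHLH repressor genes of the Hairy and E(spl) type, cwo and hry had an IDR summit, at 5661 and 20628 bp from their TSS, and dpn, Hey and Sidpn had none. The cwo gene, which encodes a repressor of the circadian clock, had 87.9 in replicate 2 (rank 627) and 42.9 in replicate 3 (rank 1949). None of the 4 matched Bearded family genes outside the complex had one, and their pooled ranks are given among the other observations. Of 22 genes of the Notch pathway, 7 had one: the receptor N, the coactivator mam, the gamma-secretase subunit aph-1, the ubiquitin ligase neur, the glycosyltransferase fng, the inhibitor numb and the target ttk. Within 500 bp of an own TSS the count was 4 of 22, against 15.2% of all genes. The length of chromosome nearest to a TSS of the gene exceeded the median of all genes, 4321 bp, at each of the 7 but aph-1. It ran from 1090 bp at aph-1 to 58807 bp at mam. The strongest of the 7 IDR summits was at numb, 212 bp upstream of a TSS, with 116 in replicate 2 (rank 350) and 122 in replicate 3 (rank 288). At aph-1 the values were 82.3 (rank 719) and 77.1 (rank 720) in replicates 2 and 3. A list of 8 genes of proneural function held bHLH activators that the repressors of the complex oppose, their partner da, and emc, which encodes an HLH antagonist without a basic domain. Of these only da had one, 89 bp upstream of a TSS, and it was stronger in replicate 3 (46.6, rank 1704) than in replicate 2 (38.9, rank 3045).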

How the data were processed

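Peak lists for dm6 and dm3, as narrowPeak files, were deposited by the authors. Per the deposited readme files, each replicate list came from its own alignments and a further data set also used for control-normalized tracks, and the IDR list came from the replicate and pooled lists. The aligner, the peak caller and their settings are not given in the sources used here. The deposited signal value is a score of unstated scale, and the deposited −log10 q value was not used to rank peaks. The dm3 lists were not used, because the reference is Release 6.

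Summits (start plus offset, written 1-based) were given to the nearest TSS among all transcripts of protein-coding genes in Ensembl release 115, ties to the first gene symbol. Ranks run from the strongest signal in a list. A replicate summit within 200 bp counted as the same peak, the strongest where there were several. Motif windows were 100 bp on each side. Promoter windows were read from the genome at each gene's outermost TSS. The genes named were all 10 genes, the other genes of the region with an IDR summit, E(spl)m6-BFM and Kaz-m1, and list members with an IDR summit. Of the listed symbols, BobB and BobC had no match and nct was matched to Nct through a RefSeq synonym. The genes, lists and motifs were chosen with earlier results of these data known. Scripts ran in Python 3.11.15 with pandas 2.3.3 and NumPy 2.4.6, and the assignment, matching and motif search were tested on simulated data. No columns of other samples were present, and both samples formed 1 group.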

Additional observations from a re-analysis of the deposited data

How the results depend on the processing

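The count of genes of the complex with an IDR summit, 3 of 10, was the same in the stronger 50% of IDR peaks and in IDR peaks that also belong to each replicate's strongest set. It was also 3 in the strongest set of either replicate alone, as given above. The replicate lists went into the IDR list, so these counts are no independent check. The count of genes was 2 with TSSs of every biotype and 2 with an own TSS within 500 bp (all genes 15.2%). It was 5 with an own TSS within 2 kb, for which no share over all genes was computed. It was 9 with gene bodies and 5 kb (all genes 39.4%) and 10 in the pooled list (all genes 66.6%). With the whole relaxed list of a replicate, an alternative chosen after seeing the data, it was 10 in replicate 2 and 9 in replicate 3. With no flank the region held 3 IDR, 21 pooled, 26 replicate 2 and 15 replicate 3 summits, and with a flank of 50 kb replicate 3 had 44. Among as many strongest peaks as the IDR list holds, replicate 2 had 8 summits in the region and replicate 3 had 10. The density ratio to arm 3R was 2.07 with 50 kb. In the strongest set of a single replicate it was 4.01 for replicate 2 and 5.08 for replicate 3. All 7 IDR summits had a match in both replicates within 100, 200 or 500 bp, which the making of the IDR list from the replicate lists favours. TAAACA stood within 50 bp of 1 of the 7. Of the 21 pooled summits given to the 10 genes, 0 had GTGGGAA within 50 bp (all pooled summits 1.12%). Within 50 bp 0 had the letters CACGTG (1.42%) and 2 had the N-box (12.9%). Within 150 bp 3 had GTGAGAA (3.27%). With an own TSS within 500 bp, 0 of 5 bHLH genes outside the complex and 4 of 22 Notch pathway genes had a summit (all genes 15.2%). With gene bodies and 5 kb the counts were 1 of 5 bHLH genes and 14 of 22 Notch pathway genes (all genes 39.4%). They were 2 of 4 matched Bearded family genes and 2 of 8 proneural genes. No paired analysis was possible because the series has 1 group. Depth is unknown, so weak summits cannot be separated from background by counts of reads.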

Other observations

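The Bearded family genes outside the complex, inhibitors of Neuralized on another arm, had pooled summits without an IDR summit. The strongest given to BobA had a signal value of 52.8 (rank 4405), that of Tom 48.9 (rank 4930), that of Brd 31.9 (rank 9661) and that of Ocho 20.3 (rank 22795). These values lie between the strongest pooled summits of E(spl)mbeta-HLH (55.3) and E(spl)mgamma-HLH (18.0) inside the complex.

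Between Exo84 and Vps2, near the end of the region, the log2 ratio of the replicate 2 to the replicate 3 signal was -1.87, the largest in size among pooled summits of the region matched in both. A summit in the strongest set of replicate 3 had 45.5 (rank 1790), and the matching summit of replicate 2 ranked 20453. The pooled summit there had 60.0 (rank 3653) and was nearest to Vps2, while that of replicate 3 was nearest to Exo84. The next pair of genes, Cmpk and Sld5, had pooled summits within 19 bp of their TSS at 45.3 and 60.3, below the IDR list.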
